A study of Mus musculus with 8 samples.

Results

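Stefins and cystatins are small proteins that block cysteine proteases of the papain type, above all the lysosomal cathepsins, by occupying the active site. The stefin A proteins act inside the cell, are built into the cornified envelope of the outer epidermis and are also made by neutrophils. In the mouse, stefin A is encoded by a row of closely similar genes on chromosome 16, whereas other inhibitors of the superfamily are single genes elsewhere.

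The genes described here are 7 inhibitors, 4 of the stefin A type (Stfa1, Stfa2, Stfa2l1 and Stfa3) and 3 others, namely Cstb (stefin B), Cst3 (cystatin C, which is secreted) and Cst6 (cystatin M/E, a secreted epidermal inhibitor of legumain and cathepsin L). They are 7 of the 50981 gene symbols found in at least 1 of the 3 deposited tables, and all 7 have a row in each table. They were selected on their measured levels in these same tables, where Stfa1 after hair plucking and Stfa3 in wounds stood out between the genotypes. Their levels and ratios are therefore a description, without a test. For a symbol with more than 1 locus, the one with the highest FPKM summed over both genotypes stands for the gene.

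Skin and keratinocytes of epidermal JunB knockout mice (JunB cKO, labelled JunB -/-) and wild type mice (labelled JunB +/+), all C57BL/6, were profiled by RNA-seq to find the genes that differ between the genotypes with and without injury. JunB is a subunit of the AP-1 transcription factor, and in the cKO mice it is deleted by a Cre recombinase driven by the keratin 14 promoter, which is active in basal epidermal cells, so that dermal, immune and muscle cells keep the gene. The unperturbed pair was not treated and came from mice at an age of 60 days. In the second pair the hair was plucked at 54 days and the skin was taken 4 days later, at 58 days. In the third pair the skin came from wounds 30 days after wounding, at an age that the labels do not give. According to the methods, RNA of 3 samples was pooled for each library. The labels list 1 library per genotype for the unperturbed and the plucked pair and 2 per genotype for the wounds, but in the wound table the pair of libraries of a genotype is merged into 1 value.

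Each value is in FPKM, fragments per kilobase of transcript, scaled to the mapped fragments of the library. There is 1 value per genotype in each table, so no difference between the genotypes can be set against a spread between animals, and no p-value is given. The 3 tables were normalized separately, and levels were compared only within a table. Genotypes were compared as log2((cKO + 1)/(WT + 1)), where the added 1 FPKM damps the ratios of weakly expressed genes, and a gene was counted as higher or lower from a log2 value of 1 upward or of -1 downward, that is, 2-fold.

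The 4 Stfa genes lie within one stretch of chromosome 16 (build GRCm38), namely Stfa2l1 at chr16:36156811-36161953, Stfa1 at chr16:36276951-36285373, Stfa2 at chr16:36403992-36408457 and Stfa3 at chr16:36450537-36455392. Stfa1 and Stfa2l1 are on the plus strand, Stfa2 and Stfa3 on the minus strand. Cstb lies at chr10:78425669-78427622, Cst3 at chr2:148871722-148875692 and Cst6 at chr19:5344705-5349574. All 7 are protein coding genes in GENCODE release M21. Of the 7, 5 had an upstream sequence in the RefSeq promoter table for GRCm38.p6 used here, the exceptions being Cstb and Cst6.

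The DNA before the RefSeq starts of the Stfa genes is shown because it is similar between these genes. How well reads can be assigned to the genes was judged from their transcripts instead, described further on. The 100 bases upstream of the RefSeq gene start were 80.4% to 87.5% identical in the 6 pairs of Stfa1, Stfa2, Stfa2l1 and Stfa3, over at least 95 aligned bases. A run of 12 bases, in capitals in the lines that follow, was the same in 7 of the 9 stefin A genes with an entry, including 3 neighbours of the 4 members (Cstdc5, Csta3 and Cstdc4). It begins between 12 and 80 bases before the start annotated in RefSeq. GENCODE, from which the gene spans above were taken, starts Stfa1, Stfa2 and Cstdc5 (BC100530 in GENCODE) further upstream. The lines of these genes thus lie inside their GENCODE spans. Each line gives 30 bases, 5′ to 3′ on the strand of the gene.
Stfa1 (chr16:36277106-36277135): ctttcggatACCTTTAAAACCctgagtctc
Stfa2 (chr16:36408375-36408404): cttacagaaACCTTTAAAACCctgagtctc
Stfa2l1 (chr16:36156766-36156795): tttacagaaACCTTTAAAACCctgagtctc
Stfa3 (chr16:36455406-36455435): ttacagataACCTTTAAAACCccgagtctc
Cstdc5 (chr16:36367562-36367591): tttacagatACCTTTAAAACCccgagtctc
Csta3 (chr16:36210314-36210343): tttacagatACCTTTAAAACCccgagtctc
Cstdc4 (chr16:36184171-36184200): tttacagatACCTTTAAAACCctgactctt

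On either strand, this run was found in the 100 upstream bases of 10 of 32851 promoter windows, or 0.0304%. It was absent from the 100 upstream bases of the remaining stefin A genes, Csta1 and Csta2. Bases outside these 100 were not searched for the run, so its absence there is not shown. The run was picked as the longest one shared within the 100 upstream bases of the 7 genes, so the share describes the letters and does not test them. The base after it is also the same in all 7 lines, but the run ends where the upstream bases of Cstdc5 end. The AP-1 motif TGANTCA, which reads the same on both strands, was searched in the whole window of 300 bases (250 before and 50 after the start). It was found for 1 of the 9 stefin A genes, Stfa3, as TGAGTCA starting 30 bases into the transcript, and in 7.81% of all windows. A match of letters does not show binding.

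The transcripts differ in how much sequence they share. Reads were 75 bases long, so each transcript was split into windows of 75 bases and searched in all transcripts of GENCODE. For Stfa3 no window occurred in another gene, and none came within 2 mismatches of another gene of the family, so reads of the other annotated stefin A transcripts would not match it. For Stfa1, 9.15% of the windows occurred unchanged in BC100530 (named Cstdc5 in RefSeq) and 59.3% came within 2 mismatches of another family member. Stfa2 shared 5.79% exactly and 43.8% within 2 mismatches, with Stfa2l1 as the exact match. Stfa2l1 shared 7.83% and 51.6%. The split of reads between Stfa1 and BC100530 and between Stfa2 and Stfa2l1 is thus uncertain, and their sums are given beside them. Cstb, Cst3 and Cst6 shared no window.

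Junb, the deleted gene, had its lower value in JunB cKO each time. It was at 268 FPKM in wild type against 31.4 in JunB cKO in the unperturbed pair, at 40.8 and 11.7 after hair plucking, and at 33.4 and 15.4 in wounds. Keratinocyte markers (Krt5, Krt14, Krt15, Krt1, Krt10 and Trp63) summed to between 3265 and 11453 FPKM in each of the 6 values. The summed fibroblast markers were at 13.7 and 12.5 FPKM in the unperturbed pair, against 5109 and 1856 after hair plucking and 10532 and 13412 in wounds, tables that were normalized separately, so that the plucked samples, which the labels call keratinocyte as tissue and skin biopsy in their title, held dermal RNA. Depth was read from the steps in low values. At a length of 1 kb, 1 FPKM stood for 16.9 reads in wild type against 4.98 in JunB cKO in the unperturbed pair, for 16.3 and 12.9 after hair plucking, and for about 43.3 and 39.7 in wounds. In the unperturbed JunB cKO library, 1487 sensory receptor genes, which skin should lack, had a median of 0.543 FPKM and a maximum of 3.90, against a median of 0 in wild type. The median log2 ratio of all symbols with at least 1 FPKM in both genotypes was -0.15 in the unperturbed pair, 0.00 after hair plucking and 0.01 in wounds.

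**Figure D1:**
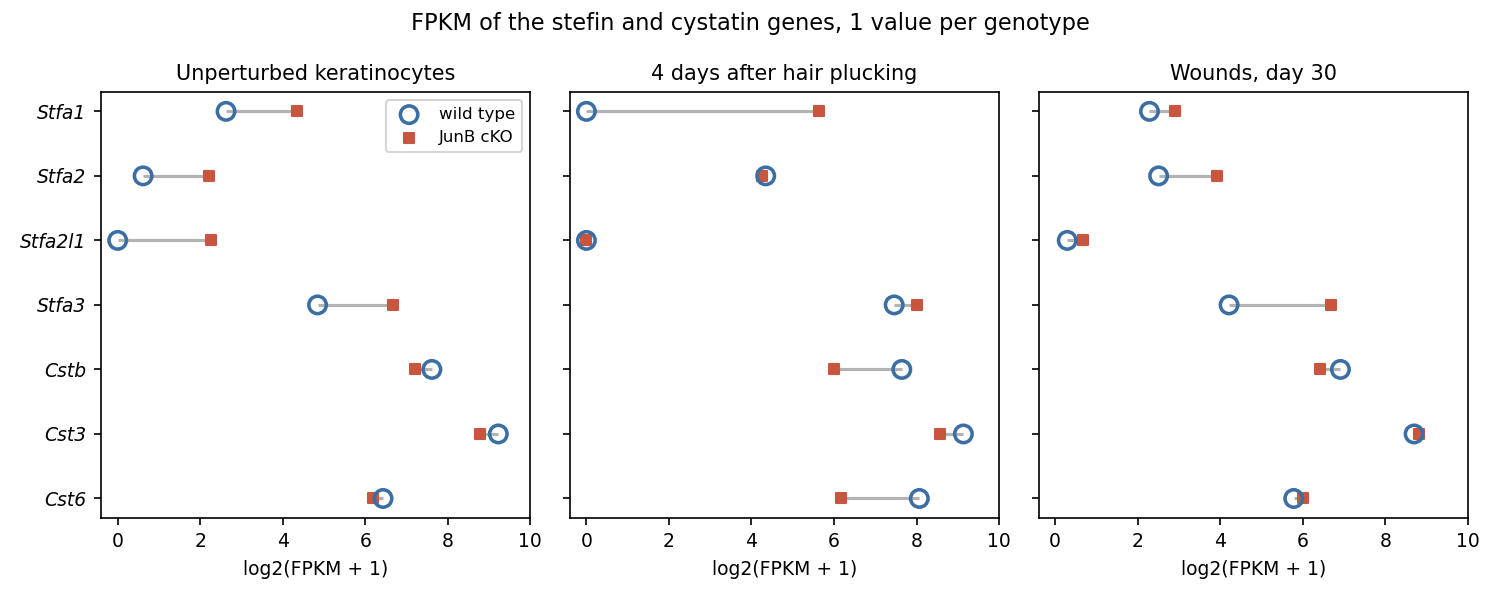
FPKM of the 7 genes on a log2(FPKM + 1) axis in each of the 3 tables, with an open circle for wild type, a filled square for JunB cKO and a grey line between them. The squares of Stfa1 and Stfa3 lie to the right of the circles in all 3 panels, and Cstb has the square to the left in all 3.

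Stfa3 was the most abundant of the 4 Stfa genes in every table and was higher in JunB cKO in each. It was at 27.7 FPKM in wild type against 102 in JunB cKO in the unperturbed pair, a ratio of 3.67. After hair plucking it was at 175 in wild type against 258 in JunB cKO, a ratio of 1.48. In wounds it was at 17.6 in wild type against 102 in JunB cKO, a ratio of 5.81. Wild type was thus the lower of the pair each time, and the ratio was smallest after hair plucking. About 99.2 and 107 reads stood behind the unperturbed values, 604 and 705 behind the plucked ones and 162 and 859 behind the wound ones. From these reads the exact 95% counting interval of the ratio was 2.76 to 4.87 in the unperturbed pair, 1.32 to 1.65 after hair plucking and 4.89 to 6.90 in wounds. These intervals, and all others given here, cover counting error only and say nothing of the difference between animals. In rank, Stfa3 went from position 5519 of 46048 symbols in wild type wounds to position 842 in JunB cKO wounds.

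Stfa1 was also higher in JunB cKO in each table, with levels under those of Stfa3. It was at 5.17 FPKM in wild type against 19.4 in JunB cKO in the unperturbed pair, a ratio of 3.75 with a counting interval of 2.17 to 6.59 from about 27.4 and 30.3 reads. After hair plucking it was listed at 0 in wild type but at 49.0 in JunB cKO. In wounds it was at 3.88 in wild type against 6.55 in JunB cKO, a ratio of 1.69 under the 2-fold limit. Its counting interval of 1.18 to 2.44 includes 2-fold. No ratio is given for the plucked pair, since with a 0 in wild type it is set by the pseudocount. The value of 0 stands beside a near copy that was well expressed in the same sample. BC100530 was at 79.4 FPKM in plucked wild type skin and 162 in JunB cKO. Stfa1 and BC100530 together were at 79.4 and 211 FPKM after hair plucking (log2 ratio 1.40), at 28.6 and 92.0 in the unperturbed pair (1.65), and at 18.5 and 49.1 in wounds (1.36). The sum was at least 2-fold higher in JunB cKO in all 3 tables, and whether the 0 reflects the split of reads was not tested.

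Stfa2 had its higher value in JunB cKO in the unperturbed pair and in wounds. It was at 0.532 FPKM in wild type against 3.61 in JunB cKO in the unperturbed pair, which is about 2.44 and 4.87 reads and a counting interval of the ratio from 1.39 to 89.0. After hair plucking it was at 19.3 in wild type against 18.2 in JunB cKO, a ratio of 0.941 with an interval of 0.667 to 1.32. In wounds it was at 4.69 in wild type against 14.1 in JunB cKO, a log2 ratio without pseudocount of 1.58 with an interval of the ratio from 2.19 to 4.16. By counting error alone, the 2 values of Stfa2 could not be told apart after hair plucking, while in wounds the JunB cKO value was the higher.

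Stfa2l1, a near copy of Stfa2, was low throughout. It was listed at 0 in wild type but at 3.76 FPKM in JunB cKO in the unperturbed pair, at 0 in both genotypes after hair plucking, and at 0.226 and 0.586 in wounds. The 3.76 FPKM rest on about 4.10 reads. This value and the 3.61 FPKM of Stfa2 in the same library lie under the highest sensory receptor gene (3.90), so neither can be told apart from the background of that library. Stfa2 and Stfa2l1 together were at 4.92 FPKM in wild type wounds and 14.6 in JunB cKO wounds.

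**Figure D2:**
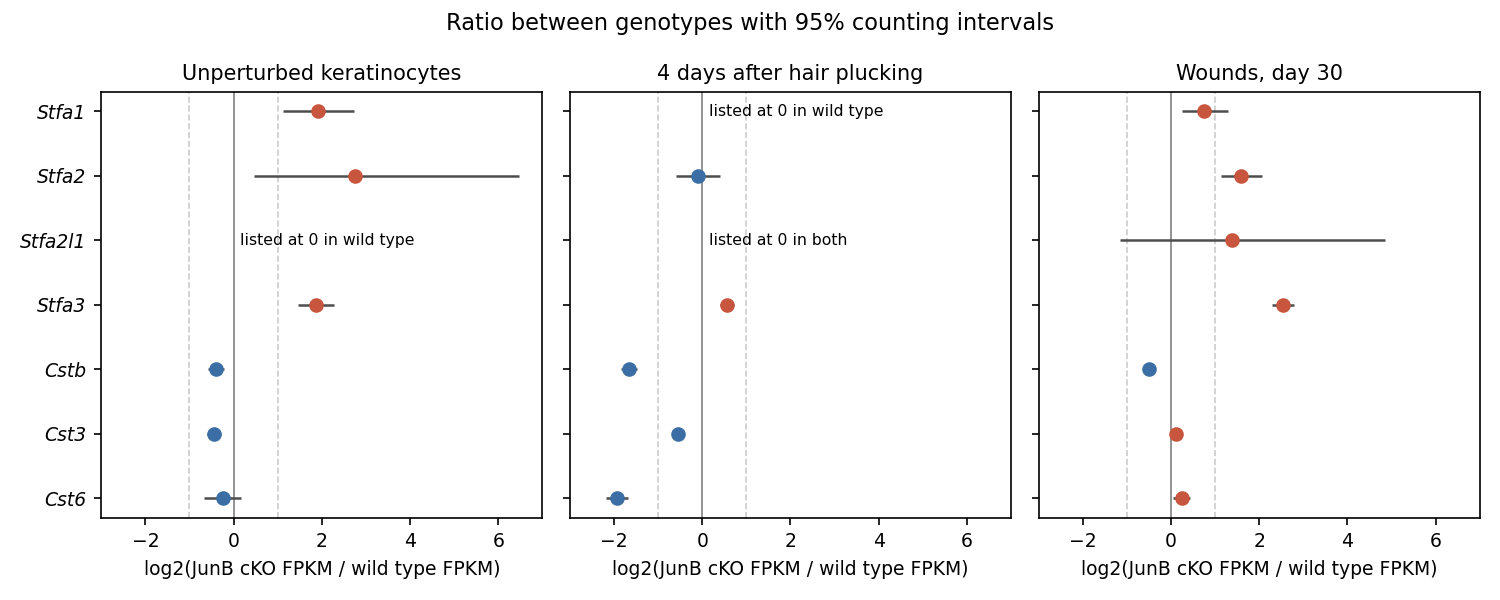
Log2 ratio of JunB cKO to wild type FPKM without a pseudocount for each gene and table, with horizontal bars for the exact 95% counting interval and dashed lines at 2-fold. Genes listed at 0 are marked in words, the Stfa genes lie mostly right of 0, and Cstb lies left of 0 in all 3 panels.

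The other 3 inhibitors were among the most abundant transcripts in each table and were at least 2-fold higher in JunB cKO in none of them. Cstb, an inhibitor of cathepsins in the cytosol and nucleus, was at 195 FPKM in wild type against 147 in JunB cKO in the unperturbed pair, at 199 and 62.6 after hair plucking, and at 120 and 84.9 in wounds. JunB cKO had the lower value in all 3 tables, with ratios of 0.757, 0.315 and 0.710. The counting interval was 0.665 to 0.859, 0.278 to 0.356 and 0.663 to 0.761, respectively.

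Cst6, the cystatin of the upper epidermis and hair follicle, was at 85.2 FPKM in wild type against 72.4 in JunB cKO in the unperturbed pair, at 267 and 70.6 after hair plucking, and at 54.1 and 63.9 in wounds. Plucked wild type skin held the high value within its table, and the ratio there was 0.264 with a counting interval of 0.221 to 0.314. For the unperturbed pair the counting interval of the ratio depends on the annotated transcript behind the reads, with 0.63 to 1.12 for the shortest, which includes 1, and 0.80 to 0.90 for the longest, which does not.

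Cst3, the secreted cystatin C made by most tissues, had the highest level of the 7 in every value. It was at 597 FPKM in wild type against 438 in JunB cKO in the unperturbed pair, at 562 and 382 after hair plucking, and at 415 and 449 in wounds. None of these differences reached 2-fold, and the ratios were 0.734, 0.680 and 1.08. In the plucked table a second locus with the same coordinates was listed at 0 in wild type but at 50.6 FPKM in JunB cKO. With both loci summed the log2 ratio was -0.38 in place of -0.56.

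At the 2-fold limit, 4 of the 7 genes were higher in JunB cKO in the unperturbed pair, namely all 4 Stfa genes, and 0 of 7 were lower. Over all 26340 symbols of that table the shares were 9.31% higher and 0.847% lower. With at least 10 FPKM in the higher genotype, 2 of 5 genes were higher (Stfa1 and Stfa3) and 0 of 5 lower, against 1.62% and 1.8% of all such symbols. After hair plucking 1 of 7 was higher (Stfa1) and 2 of 7 lower (Cstb and Cst6), against 6.42% and 5.62% of all 46036 symbols, and 1 of 6 and 2 of 6 with at least 10 FPKM, against 13.1% and 12.3%. In wounds 2 of 7 were higher (Stfa2 and Stfa3) and 0 of 7 lower, against 2.14% and 1.97% of all 46048 symbols, and 2 of 5 and 0 of 5 with at least 10 FPKM, against 4.09% and 3.38%. The genes were chosen with these ratios known, so nothing is read from their excess over these shares. The median log2 ratio of the 7 genes was 1.59, -0.08 and 0.37 in the 3 tables, beside 0.13, 0.00 and 0.00 over all symbols.

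The row of stefin A genes on chromosome 16 has further genes, and 11 in all, the 4 members included, were listed in each table. Summed over the 11, the level was 68.8 FPKM in wild type against 236 in JunB cKO in the unperturbed pair, 1037 and 1716 after hair plucking, and 352 and 445 in wounds. The composition of this sum differed between the tables. Csta1, the stefin A gene named as a cornified envelope component, made up 16.5% of it in unperturbed wild type and 12.1% in JunB cKO, 73.6% and 71.6% after hair plucking, and 88.0% and 61.0% in wounds. Csta1 itself was at 11.4 and 28.5 FPKM in the unperturbed pair, at 763 and 1229 after hair plucking, and at 310 and 272 in wounds.

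In wounds Csta1 and its neighbours thus went separate ways. Without Csta1, the remaining 10 genes summed to 42.4 FPKM in wild type wounds and 173 in JunB cKO wounds, a ratio of 4.09, while Csta1 had a ratio of 0.876 with a counting interval of 0.830 to 0.925. The share of Stfa3 in the whole row was 4.99% in wild type wounds and 23.0% in JunB cKO wounds. In the unperturbed pair the same 10 genes were at 57.4 and 207 FPKM (ratio 3.61), and after hair plucking at 274 and 488 (ratio 1.78). Of the 11 genes, 8 were at least 2-fold higher in JunB cKO in the unperturbed pair, 2 after hair plucking and 4 in wounds, beside 9.31%, 6.42% and 2.14% of all symbols, and 0 were 2-fold lower in any table. Of the 8, Stfa2, Stfa2l1, Gm4758 and 2010005H15Rik had 3.61, 3.76, 2.00 and 1.23 FPKM in JunB cKO, under the highest sensory receptor gene of that library. Gm5416 (Csta3 in RefSeq) was at 1.18 FPKM in wild type wounds and 7.39 in JunB cKO wounds.

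**Figure D3:**
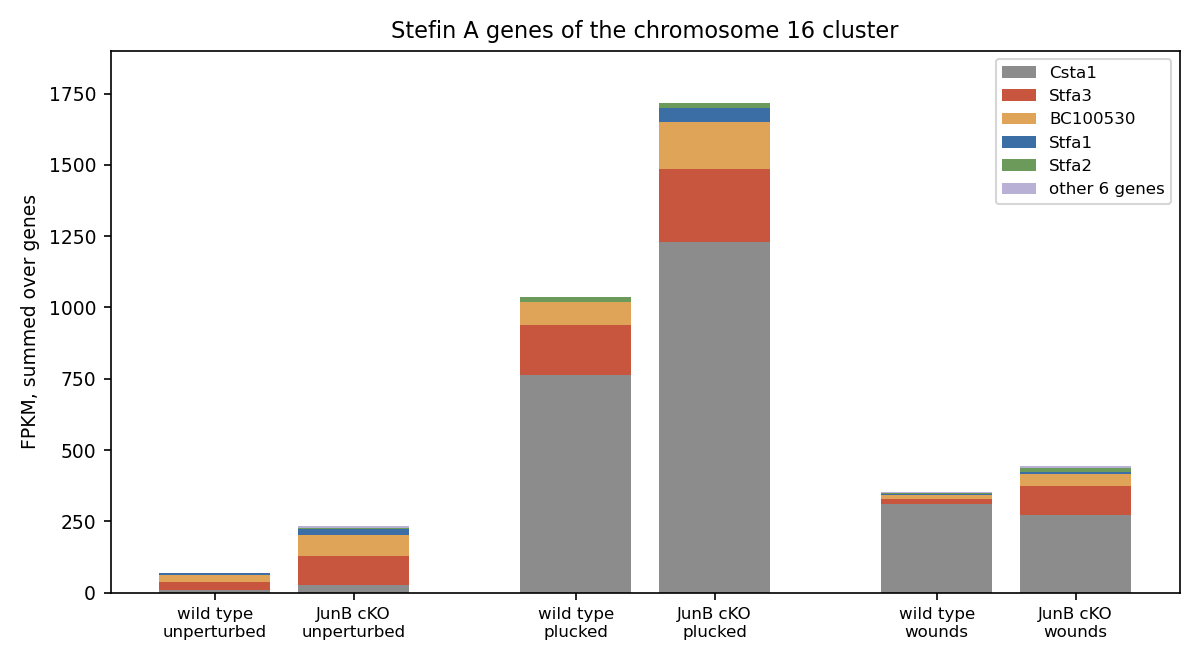
Summed FPKM of the 11 stefin A genes of chromosome 16 as stacked bars, 1 bar per genotype and table, with a colour for each of the 5 main genes and 1 for the other 6. Csta1 (grey) makes up 88.0% of the bar of wild type wounds and 61.0% of that of JunB cKO wounds, and levels are comparable only within a pair of bars.

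The targets of these inhibitors, 10 cysteine cathepsins and legumain (Lgmn), passed the 2-fold limit only after hair plucking. Of the 11, 0 passed it in the unperturbed pair and their sum was 199 FPKM in both genotypes, with Ctsb, a widely expressed lysosomal cathepsin, at 62.2 in wild type against 63.6 in JunB cKO. After hair plucking 10 of 11 were lower in JunB cKO, 4 of them by at least 2-fold, and the sum was 866 in wild type against 479 in JunB cKO. Over all symbols the share at least 2-fold lower was 5.62% after hair plucking, against 0.847% in the unperturbed pair and 1.97% in wounds. Among symbols with at least 10 FPKM in the higher genotype after hair plucking it was 12.3%. Ctsc, which activates the serine proteases of immune cells, was at 166 and 41.7 FPKM, and Ctsk, a collagen degrading cathepsin, at 106 and 34.6. The other calls were Ctsf, at 15.5 and 6.91, and Ctsw, at 5.35 and 0. Ctsl, which has a role in epidermis and hair cycle and is inhibited by Cst6, was at 189 and 157. In wounds 0 of 11 passed 2-fold, with a sum of 1198 in wild type against 1023 in JunB cKO and Ctsl at 286 and 190. The median log2 ratio of the 11 was 0.03, -0.94 and -0.04, beside 0.13, 0.00 and 0.00 over all symbols.

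The lower values of Cstb, Cst6 and the cathepsins in plucked JunB cKO skin stand beside lower values of markers of several cell types, though not of all. The 4 measured macrophage markers (Adgre1, Cd68, Mrc1 and Lyz2) summed to 206 FPKM in wild type against 65.7 in JunB cKO. Of these, 4 of 4 were at least 2-fold lower, beside 5.62% of all symbols. Fibroblast markers summed to 5109 and 1856, with 6 of 6 lower by sign and 3 of them at least 2-fold lower. Skeletal muscle markers summed to 196 and 15.9, with 4 of 4 at least 2-fold lower. Counts for the lists that follow are by sign. Keratinocyte markers summed to 7577 and 9104. Epithelial lists were lower in part, with sebocyte markers at 1191 and 751. Stress keratinocyte markers (Krt6a, Krt6b, Krt16, Krt17 and Sprr1b) summed to 1351 and 819, with 3 higher and 2 lower. Endothelial markers summed to 61.3 and 45.3, with 2 higher and 2 lower. Adipocyte markers summed to 146 and 48.5, with 1 higher (Adipoq) and 3 lower. The part of these cells in the result was not tested. In bulk samples, fewer cells of a type and less RNA per cell cannot be told apart.

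The stefin A genes were also read beside the neutrophil markers, since neutrophils make stefin A. Their 20 markers summed to 12.1 FPKM in wild type against 46.2 in JunB cKO in the unperturbed pair. Of the 20, 5 were at least 2-fold higher, beside 9.31% of all symbols. Among the 5, Cxcr2 and Retnlg had 1.62 and 1.48 FPKM in JunB cKO, under the highest sensory receptor gene of that library (3.90). Defining genes were near the sensory receptor level in JunB cKO, with Ly6g at 0.981, Mpo at 0.171 and Elane at 0.558 FPKM, and at 0 in wild type. After hair plucking 19 markers summed to 27.8 and 423 FPKM. Of the latter, S100a8 gave 152 and S100a9 gave 250, both of which keratinocytes also make, while 10 of the 19 were at 0 in both genotypes. At the 2-fold limit 3 of 19 were higher (S100a8, S100a9 and Lcn2) and 3 were lower (Csf3r, at 3.55 in wild type against 0.551 in JunB cKO, Itgam and Il1b). Over all symbols the shares were 6.42% higher and 5.62% lower. Among symbols with at least 10 FPKM in the higher genotype they were 13.1% and 12.3%. In wounds the 19 markers summed to 80.2 and 275 FPKM, with 5 of 19 at least 2-fold higher, beside 2.14% of all symbols. Among the 5 were Csf3r at 1.80 and 5.60 and Lcn2 at 2.70 and 12.4. S100a8, at 36.7 and 139, and S100a9, at 10.9 and 77.5, gave most of this sum too, and Mmp9 had its higher value in wild type, at 8.56 against 3.79. Ly6g, Mpo and Elane were at 0 in both genotypes after hair plucking and in wounds. The part of neutrophils in the higher Stfa3 of JunB cKO wounds was not tested.

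Genes of the cornified envelope, the protein shell into which stefin A is cross-linked, did not share one direction. In the unperturbed pair 7 of 21 were at least 2-fold higher in JunB cKO and 1 lower, beside 9.31% and 0.847% of all symbols. Sprr2d, Sprr3 and Lce3a, which are 3 of the 7, had at most 2.51 FPKM in JunB cKO, within the range of the sensory receptor genes. The other higher ones include the envelope proteins loricrin (Lor), at 47.0 FPKM in wild type against 213 in JunB cKO, and cornifelin (Cnfn), at 65.3 and 177, as well as Csta1, and the lower one was Sprr1b at 33.8 and 13.0. After hair plucking 3 of 21 were higher and 1 was lower, beside 6.42% and 5.62% of all symbols. Among symbols with at least 10 FPKM in the higher genotype the shares were 13.1% and 12.3%. Cnfn was at 3.61 and 41.3, and the lower one, Sprr1a, at 258 and 113. The other higher ones, Sprr2d and Lce3c, were at 2.59 and 6.15 FPKM in JunB cKO and listed at 0 in wild type. In wounds 1 of 20 was higher and 3 were lower, beside 2.14% and 1.97% of all symbols. The higher one was Sprr2d, at 0 and 1.56 FPKM. The lower ones include involucrin (Ivl) at 139 and 65.7 and Tgm3, a cross-linking transglutaminase, at 33.3 and 12.7. The median log2 ratio of the list was 0.24, 0.40 and -0.19, beside 0.13, 0.00 and 0.00 over all symbols. By sign alone, with most differences under 2-fold, 13 of 21, 16 of 21 and 5 of 20 had the higher value in JunB cKO.

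**Figure D4:**
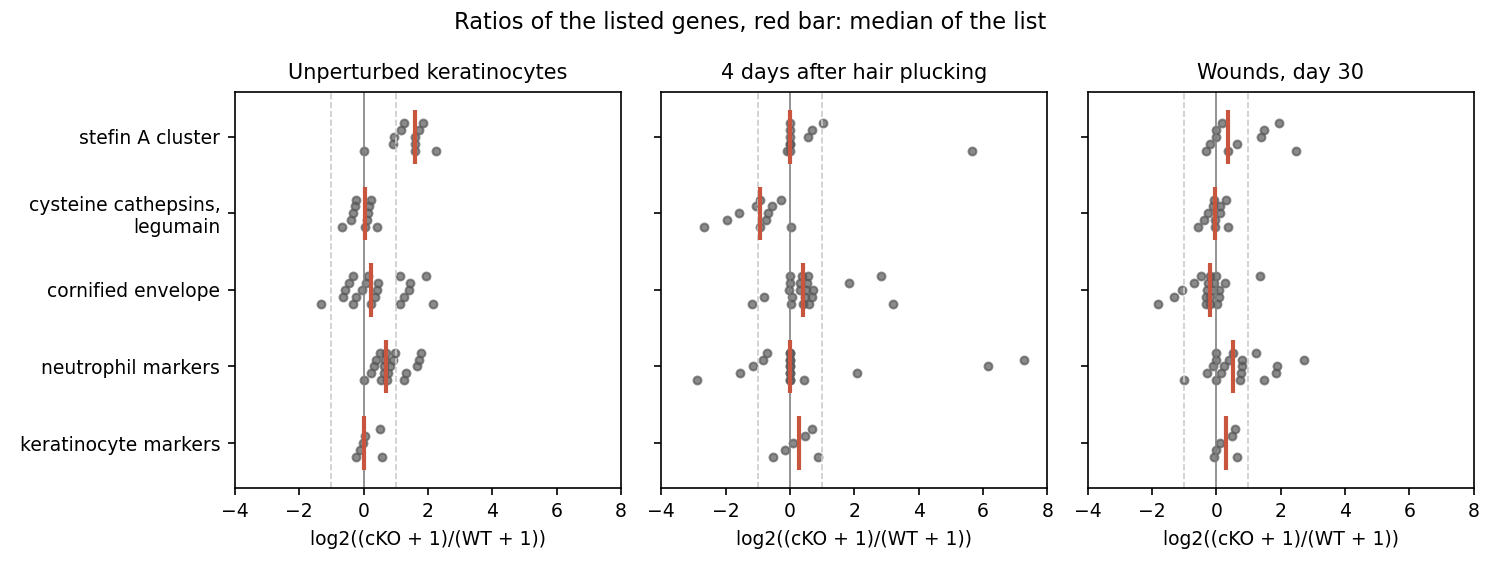
Log2((cKO + 1)/(WT + 1)) of each gene (grey points) for the stefin A row, the cysteine cathepsins with legumain, the cornified envelope, neutrophil and keratinocyte markers in the 3 tables, with a red bar at the median of each list and dashed lines at 2-fold. The cathepsin median is -0.94 after hair plucking and 0.03 and -0.04 in the other panels.

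Among the other 13 cystatin superfamily genes measured, which comprise male reproductive tract cystatins and plasma proteins of the liver, 10 were listed at 0 in both genotypes after hair plucking and 8 in wounds. In the unperturbed pair 4 of 13 were at least 2-fold higher in JunB cKO, beside 9.31% of all symbols. They had at most 2.97 FPKM (Cst11), which again lies within the range of the sensory receptor genes in that library. The leukocyte cystatin Cst7 was at 2.81 and 2.57 FPKM after hair plucking and at 0.947 FPKM in wild type wounds, where its log2 ratio was 0.72.

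The genes whose 3 log2 ratios lay nearest to those of Stfa3 were sought among 6595 symbols with at least 10 FPKM in the higher genotype after hair plucking and in wounds. They were the small RNA gene Vaultrc5 (Euclidean distance 1.04), BC100530 (1.12), the small RNA gene Rnu12 (1.39), Sf3a2 (1.64) and Lcn2 (1.64). BC100530, which lies in the same row of genes on chromosome 16, had log2 ratios of 1.59, 1.02 and 1.48, beside 1.84, 0.56 and 2.47 for Stfa3. The nearest genes to Stfa1 were Gm10228 (1.40), Snora31 (1.76), Srrd (1.76), Mrps18c (1.89) and Krtap4-6 (1.92), of which Gm10228, Srrd and Krtap4-6 were likewise listed at 0 in plucked wild type skin. The ratio of Stfa1 after hair plucking, and with it this ranking, depends on the pseudocount. Likeness over 3 ratios is a description of these values.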

How the data were processed

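The deposited tables hold FPKM values per gene locus and genotype, which the authors made by trimming the single reads of stranded, rRNA-depleted libraries, mapping them to GRCm38 (mm10) with TopHat or HISAT2, assembling loci with Cufflinks and comparing genotypes with Cuffdiff. FPKM is adjusted for length and depth, so counting tests were not applied, and the counting intervals rest on read numbers estimated from FPKM. The tables also hold the authors' own fold changes, p-values, q-values and calls, which were not used. Which table belongs to plucking and which to wounds was read from the table names alone. The unperturbed samples are keratinocytes in the labels and intact skin in the methods.

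The 7 genes and all gene lists were chosen with earlier results of these data known. Csta, as the unperturbed table writes it, was read as Csta1 because it has the same start, a step chosen after the tables were seen. Named genes are the 7, Junb, members of the lists, and the 5 genes most alike to Stfa1 and to Stfa3. One further listed gene is not reported here.

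Read numbers were estimated from transcripts of 400 to 2500 bases with 1 annotated isoform, with the transcript length less 200 bases. Values then fell within 0.05 of whole reads for 98.7% to 99.6% of loci under 20 reads in the unperturbed and plucked tables, but for 58.4% and 82.9% in wounds, where 2 libraries are mixed and read numbers are approximate. The total depth is unknown. Counting intervals (exact, Clopper-Pearson) use the shortest annotated transcript unless stated. Reads without molecular identifiers are not independent molecules. In simulated tables of 26340 to 46048 symbols, the 2-fold limit recovered 200 of 200 genes changed 4-fold. These were drawn from genes with at least 10 FPKM in wild type, at more reads per FPKM than in the unperturbed pair. The simulation checks the arithmetic under counting error only. It covers neither the variation between animals nor short or weakly expressed genes at the depth of that pair.

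Analyses used Python 3.11.15, pandas 2.3.3, numpy 2.4.6, scipy 1.17.1 and biopython 1.88, and plots matplotlib 3.10.9. Alternatives were pseudocounts of 0.1 and 0.01, a minimum of 1 FPKM, centring, loci with status OK, a 1.5-fold limit and summed loci.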

Additional observations from a re-analysis of the deposited data

Results flagged for a closer look

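Cst3 lay in opposite directions between tables, with a log2 ratio of 0.11 in wounds, -0.45 in the unperturbed pair and -0.56 after hair plucking, and in each the counting interval kept to one side of 0. The difference between the tables was not tested, since each has 1 value per genotype. Cst6 likewise had a log2 ratio of 0.24 in wounds and -1.91 after hair plucking, a difference that was not tested. The second Cst3 locus of the plucked table, which the comparisons above leave out, had 50.6 FPKM in JunB cKO and was at 0 in wild type.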

How the results depend on the processing

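Each table has 1 value per genotype, so no spread between animals could be set against any ratio. No paired analysis was possible because the wound table does not separate its 2 libraries per genotype and the other pairs have 1 each; for the same reason no fit without a library was run. The counts of genes past the fold limit stayed within 1.5 times under the 7 other settings of the methods in all 42 cases. Of 153 recomputed log2 ratios of single genes and of the stefin A sum, 0 turned direction. A change of pseudocount cannot turn the sign of a ratio. The 1 FPKM minimum, the status and the 1.5-fold limit left every remaining ratio as it was. Most of the 153 ratios could thus not turn. Of the 133 with a closed counting interval, 4 moved outside it, and of the 20 of genes with a 0 in a genotype, 5 moved by over 1.5 times. A 0 leaves the ratio to the pseudocount: with 1, 0.1 and 0.01 FPKM, Stfa1 after hair plucking had 5.64, 8.94 and 12.26, and Stfa2l1 in the unperturbed pair 2.25, 5.27 and 8.56. Both loci of Cst3 summed gave -0.38 in place of -0.56. After the data were seen, Csta1 was left out of the stefin A sum, which took the log2 ratio from 0.34 to 2.01 in wounds and from 0.73 to 0.83 after hair plucking, and Stfa1 was summed with BC100530, which gave 1.40 after hair plucking and 1.36 in wounds in place of 5.64 and 0.63. Depth limits Stfa2 and Stfa2l1 in the unperturbed JunB cKO library, where a few reads carry each value.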
